A study of Mus musculus with 6 samples.

Results

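The B cell receptor complex and its proximal signalling proteins were examined here through 9 genes: Cd79a, Cd79b, Ms4a1, Cr2, Cd22, Lyn, Syk, Btk and Blnk. They were taken by gene symbol from the 31053 genes of the count matrices, and all 9 were found once. Their levels were described across the B cell and plasma-lineage cells of 6 single-cell RNA-seq libraries from mouse spleen.

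A B cell receptor is a membrane immunoglobulin bound to a heterodimer of Cd79a and Cd79b, whose cytoplasmic tails carry the activation motifs. Lyn phosphorylates these tails, Syk docks on them, and Blnk is the adaptor that brings Btk and its substrates to active Syk. Cr2 (CD21) is a receptor for complement fragments, Cd22 is a sialic acid-binding receptor that recruits phosphatases, and Ms4a1 (CD20) is a surface protein of B cells. In a germinal centre (GC), centroblasts divide in the dark zone, centrocytes test their receptor in the light zone, and some cells leave as memory B cells or as plasma cells, which secrete immunoglobulin instead of carrying it on the surface.

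The study asked how loss of 1 copy of Smc3, a core subunit of the cohesin ring, acts on B cells that pass through the GC. Mice were immunized with sheep erythrocytes, sorted cells of their spleens were loaded on a droplet system, and the 3′ ends of transcripts were sequenced. Of the libraries, 3 carried the Cγ1-Cre allele with both Smc3 copies (Smc3 wt/wt) and 3 carried Cγ1-Cre with 1 Smc3 copy deleted (Smc3 wt/-). Cγ1-Cre, which the controls carry too, is active in B cells that enter the GC reaction, so cells outside the GC need not have lost the allele. The labels name no age or strain and do not say how many mice each library holds. The methods count more Smc3 wt/wt mice than there are Smc3 wt/wt libraries, so p-values measure only the spread between these libraries.

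The libraries held 22939 cell barcodes and 5223325 to 35354257 unique molecular identifiers (UMIs, 1 per captured transcript). After filters 20809 cells were kept, and 276 barcodes occurred in more than 1 library. All samples are labelled GC B cells, but the clusters also held 526 T cell-like and 741 myeloid-like cells. The GC classes were CB-like cells with G2/M genes (centroblast-like, 2974 cells), S-phase GC B-like cells (5537), CC-like cells with light-zone genes (centrocyte-like, 1248) and recycling-like cells with Myc-linked biosynthesis genes (2188). Outside these were naive or memory B-like cells (1858) and 3678 cells left unnamed, led by haemoglobin genes, Pxdc1, Apoe and Gsn. The plasma lineage held 564 cycling PB-like (plasmablast-like) and 1495 PC-like (plasma cell-like) cells. No member was used to cluster or to name cells.

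Smc3 wt/- replicate 2 stood apart from the other 5 libraries. The labels do not say whether it was sorted like the others, so a difference in sort and the genotype cannot be told apart in values that include it. Of its UMIs 51.9% came from immunoglobulin genes, where the others had 2.37% to 3.90%, and it held 1411 of the 1495 PC-like, 328 of the 564 PB-like and 638 of the 741 myeloid-like cells but only 66 CB-like cells. Levels are given as CPM, UMIs summed over the cells of a class in a library and scaled to a common total of UMIs outside immunoglobulin genes. In the recycling-like cells of that library the 20 myeloid markers summed to 2136 CPM, against 137 to 150 in the other libraries, with 17 of the 20 detected. The immunoglobulin share of UMIs in its PB-like cells was 42.1%, against 12.3% to 15.9%. The results that rest most on this library are given with and without it. Each mean ± SD is over n = 6 libraries unless stated. In such sums, fewer cells with a transcript and fewer transcripts per cell cannot be told apart. Classes are clusters of the same cells, so differences between classes are given with no p-value.

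The deleted gene, Smc3, was measured first. In CB-like cells it lay at 115, 130 and 116 CPM for Smc3 wt/wt and 128, 125 and 146 CPM for Smc3 wt/-, so the groups overlapped. Smc3 wt/- replicate 2 was the lowest library in the other tested classes. It held 43.6 CPM in the plasma lineage (99.7 to 129 CPM in the other libraries) and 59.8 CPM in CC-like cells (105 to 116 CPM). In naive or memory B-like cells it held 48.5 CPM (59.6 to 80.1 CPM). In none of the 4 tested classes did Smc3 pass the edgeR quasi-likelihood test (adjusted p of at least 0.859). Tags from transcript 3′ ends need not cover the deleted part of the gene, so these values do not check the genotype labels.

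Promoters are shown for 4 members, read from RefSeq on build GRCm38.p6 as the 250 bases before the start of the RefSeq entry, 5′ to 3′ on the gene's strand. The gene boundaries given further on are those of GENCODE M21, by which the windows of Blnk and Cd22 lie inside the gene and that of Cd79a partly so. They are Cd79a and Blnk, whose transcripts stayed well above background in plasma-lineage cells, and Cd22 and Cr2, which lay at background there. Capitals mark matches, on either strand, to 4 motifs known from B cell promoters: the octamer ATTTGCAT, the ETS motif AGGAAGT, the E-box CAGGTG and the EBF1 palindrome TCCCNNGGGA. The windows are chr7:24897247-24897496 (plus strand) for Cd79a, chr19:40994222-40994471 (minus strand) for Blnk, chr7:30879029-30879278 (minus strand) for Cd22 and chr1:195176720-195176969 (minus strand) for Cr2.

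Cd79a: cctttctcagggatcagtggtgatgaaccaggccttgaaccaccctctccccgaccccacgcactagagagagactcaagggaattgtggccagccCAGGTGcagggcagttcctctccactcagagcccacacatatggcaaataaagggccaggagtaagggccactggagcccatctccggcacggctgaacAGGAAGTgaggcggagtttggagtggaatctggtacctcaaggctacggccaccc

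Blnk: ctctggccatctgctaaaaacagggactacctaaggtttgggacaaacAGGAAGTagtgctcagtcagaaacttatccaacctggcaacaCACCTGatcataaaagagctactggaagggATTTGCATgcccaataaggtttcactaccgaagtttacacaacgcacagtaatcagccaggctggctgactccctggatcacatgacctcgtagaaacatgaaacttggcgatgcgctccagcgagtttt

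Cd22: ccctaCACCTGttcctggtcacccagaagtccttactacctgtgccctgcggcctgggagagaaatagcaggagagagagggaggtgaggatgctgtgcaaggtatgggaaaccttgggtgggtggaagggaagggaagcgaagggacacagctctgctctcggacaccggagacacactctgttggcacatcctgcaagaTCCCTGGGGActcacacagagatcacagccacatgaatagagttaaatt

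Cr2: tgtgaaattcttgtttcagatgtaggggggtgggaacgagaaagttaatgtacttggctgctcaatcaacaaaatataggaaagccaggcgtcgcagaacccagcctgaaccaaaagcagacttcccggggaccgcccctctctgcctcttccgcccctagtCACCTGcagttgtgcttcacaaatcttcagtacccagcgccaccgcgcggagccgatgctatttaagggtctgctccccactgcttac

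RefSeq entries were at hand for 6 of the 9 members, these 4 with Btk and Syk. The octamer was in 1 of the 6 (Blnk, 130 bases before the RefSeq start) and in 1.60% of 32851 promoters of the same length. The ETS motif was in 2, at 55 bases before the start of Cd79a and at 202 before that of Blnk, and in 7.69% of all promoters. The E-box was in 5 of the 6, all but Btk, against 17.2% of all promoters. The EBF1 palindrome was in Cd22 alone, 49 bases before its start, and in 0.779% of all promoters. These are matches of letters and say nothing of binding.

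The 2 subunits of the receptor complex differed most in plasma cells. Cd79a (chr7:24897381-24902197 on GRCm38, the plus strand) lay in CB-like cells at 1345, 1603 and 1551 CPM for Smc3 wt/wt and 1737, 2446 and 1674 CPM for Smc3 wt/-. Its highest class was the naive or memory B-like class with 3157 ± 184 CPM, 1.86-fold the CB-like level and higher in 6 of 6 libraries. Unnamed cells held 2567 ± 178 CPM, above S-phase GC B-like cells in 6 of 6 libraries. S-phase GC B-like (1799 ± 163 CPM), CB-like (1726 ± 377 CPM) and CC-like cells (1694 ± 109 CPM) came next, in an order that did not hold in every library. Recycling-like (937 ± 52.7 CPM) and PB-like cells (855 ± 197 CPM) were the lowest B-lineage classes. In PC-like cells Cd79a was at 2814, 3117 and 2388 CPM for Smc3 wt/wt and 2621, 2246 and 3171 CPM for Smc3 wt/-. All 6 PC-like values lay above all 6 PB-like values. T cell-like cells, which should lack the gene, gave 77.8 ± 38.6 CPM as a background level, and myeloid-like cells gave 195 ± 253 CPM. Whether this background is free RNA or leftover doublets was not tested.

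Cd79b (chr11:106311341-106314762, the minus strand) was highest in the unnamed cells, at 2723 ± 372 CPM, and next in the naive or memory B-like cells, at 2281 ± 236 CPM. It lay at 1480 ± 143 CPM in CB-like and 1370 ± 218 CPM in CC-like cells. PB-like cells held 709 ± 71.8 CPM. In PC-like cells it was at 358, 918 and 703 CPM for Smc3 wt/wt and 789, 475 and 771 CPM for Smc3 wt/-. These values overlapped those of PB-like cells, and PC-like cells were the higher in 3 of 6 libraries. The lowest of them rests on 15 UMIs.

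The ratio of Cd79a to Cd79b UMIs does not depend on how libraries are scaled. Its mean was 0.963 to 1.39 in the 7 other classes, with 1.201 ± 0.224 in PB-like cells, and 4.47 ± 1.75 in PC-like cells. The PC-like ratio ran from 3.32 to 7.87 over libraries, above the highest value of any other class (2.05), and its mean was 4.42 without Smc3 wt/- replicate 2. Since 2 genes need not be captured alike, the difference between classes can be read and the ratio itself cannot.

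**Figure D1:**
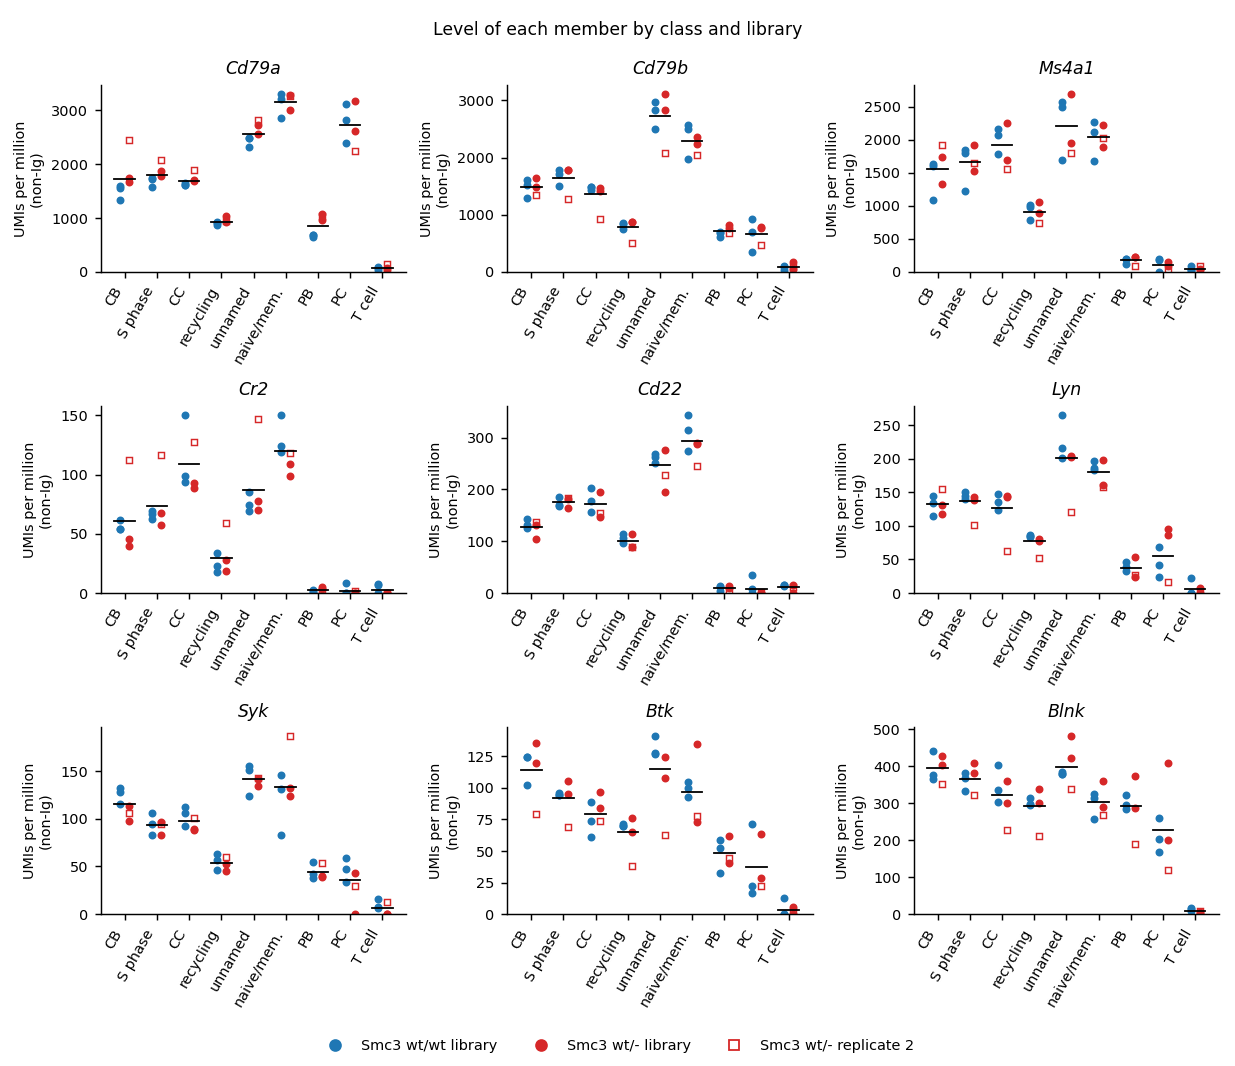
CPM of UMIs outside immunoglobulin genes (y axis) of each member in 9 classes (x axis), 1 point per library, with black bars for the mean of the libraries. Cd79a is the member whose PC-like level (mean 2726 CPM) lies far above its PB-like level (855 CPM), while Cr2 and Cd22 lie near the T cell-like level in both plasma classes and Ms4a1 is at 176 CPM in PB-like and 49.5 CPM in T cell-like cells.

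Among the surface receptors, Ms4a1 (chr19:11249675-11266241, the minus strand) separated B cells from the plasma lineage. CB-like cells held 1086, 1595 and 1634 CPM for Smc3 wt/wt and 1335, 1926 and 1737 CPM for Smc3 wt/-, and these ranges overlapped. CC-like (1920 ± 284 CPM), naive or memory B-like (2035 ± 220 CPM) and unnamed cells (2200 ± 434 CPM) did not differ in a constant order. PB-like cells held 126, 199 and 190 CPM for Smc3 wt/wt and 219, 92.1 and 233 CPM for Smc3 wt/-, all above the highest T cell-like value of 86.4 CPM. Myeloid-like cells, which should lack it too, held 4.55 CPM in Smc3 wt/- replicate 2, where there were 638 of them, against 92.1 CPM in its PB-like cells. In the other 5 libraries, with 13 to 30 myeloid-like cells each, they ran up to 391 CPM. PC-like cells held 109 ± 85.9 CPM. The library with most PC-like cells, Smc3 wt/- replicate 2, was at 17.6 CPM, and Smc3 wt/wt replicate 1 had 0 UMIs in 13 cells, which allows up to 71.6 CPM (3 UMIs, counting error only).

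Cr2 (chr1:195136811-195176716, the minus strand), the complement receptor, had its highest levels in naive or memory B-like (120 ± 17.3 CPM) and CC-like cells (109 ± 24.6 CPM). CC-like cells were above CB-like cells (61.3 ± 26.2 CPM) in 6 of 6 libraries, by 1.85-fold. Within the GC, the CB-like value of Smc3 wt/- replicate 2 was 113 CPM against 39.5 to 61.6 CPM in the others, and without it the CB-like mean was 51.0 CPM. In plasma-lineage cells Cr2 was at 2.43 ± 1.87 CPM, 23 UMIs in all 6 libraries together, beside 2.31 ± 3.596 CPM in T cell-like cells. That is no more than the background in T cell-like cells.

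Cd22 (chr7:30865402-30880342, the minus strand), the inhibitory receptor, was lowest among B cell classes in recycling-like (101.2 ± 12.01 CPM) and CB-like cells (128 ± 13.6 CPM). It was 1.37-fold the CB-like level in S-phase GC B-like cells, 1.34-fold in CC-like cells and 2.27-fold in naive or memory B-like cells (293 ± 33.7 CPM), each in 6 of 6 libraries. In PB-like cells it was at the T cell-like level, with 9.02 ± 4.86 CPM against 11.8 ± 5.93 CPM.

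The kinases were lower in plasma-lineage than in CB-like cells. Lyn (chr4:3678115-3813122, the plus strand), which starts the signal and also feeds the inhibitory receptors, was in CB-like cells at 115, 134 and 145 CPM for Smc3 wt/wt and 118, 155 and 131 CPM for Smc3 wt/-. It reached 180 ± 17.2 CPM in naive or memory B-like and 201 ± 46.4 CPM in unnamed cells, and 37.0 ± 13.2 CPM in the plasma lineage against 5.38 ± 8.80 CPM in T cell-like cells. The lowest plasma-lineage value (18.8 CPM, Smc3 wt/- replicate 2) was below the highest T cell-like value (22.3 CPM). Myeloid-like cells express Lyn too, at 286 ± 110 CPM. In CC-like cells Smc3 wt/- replicate 2 held 62.5 CPM on 23 UMIs, and the other 5 libraries 123 to 147 CPM.

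Syk (chr13:52583173-52648792, the plus strand) was at 116 ± 12.9 CPM in CB-like cells and lower in S-phase GC B-like (93.1 ± 8.76 CPM) and CC-like cells (98.0 ± 9.78 CPM) in 6 of 6 libraries each. Recycling-like cells held 53.9 ± 7.02 CPM and PB-like cells 44.5 ± 7.89 CPM. Btk (chrX:134542336-134583570, the minus strand) was at 114 ± 20.3 CPM in CB-like, 92.3 ± 12.2 CPM in S-phase GC B-like and 79.7 ± 12.6 CPM in CC-like cells. S-phase GC B-like cells were above CC-like cells for Btk and below them for Syk, each in 5 of 6 libraries. The PB-like level of Btk was 48.3 ± 11.1 CPM, against 3.50 ± 5.10 CPM in T cell-like cells. Myeloid-like cells held 70.2 ± 47.2 CPM of Syk and 53.3 ± 29.3 CPM of Btk, above the plasma-lineage means of 41.1 and 44.8 CPM. In CPM, both kinases that act downstream of the receptor were thus highest, among the named GC classes, in the CB-like class. Unnamed cells held 141 ± 11.3 CPM of Syk and 115 ± 27.9 CPM of Btk. Per cell, recycling-like cells held more than CB-like cells. For Syk they held 0.772 ± 0.214 against 0.623 ± 0.161 UMIs (5 of 6 libraries), and for Btk 0.937 ± 0.306 against 0.620 ± 0.186 UMIs (6 of 6).

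The adaptor Blnk (chr19:40928927-40994535, the minus strand) had the smallest ratio of highest to lowest mean over the 8 B-lineage classes. It was at 395 ± 35.3 CPM in CB-like, 367 ± 32.7 CPM in S-phase GC B-like, 322 ± 59.5 CPM in CC-like and 302 ± 38.5 CPM in naive or memory B-like cells. PB-like cells held 285, 323 and 297 CPM for Smc3 wt/wt and 374, 189 and 289 CPM for Smc3 wt/-, which overlapped the naive or memory B-like values. PC-like cells held 226.7 ± 101.4 CPM. T cell-like cells held 8.19 ± 5.54 CPM, so Blnk transcripts in plasma-lineage cells were not at the background level.

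Read as counts of members against CB-like cells of the same library, the classes fell into groups. Of the 9 members, 6 were higher in every library in naive or memory B-like cells (Cd79a, Cd79b, Ms4a1, Cd22, Cr2 and Lyn), where 18.2% of 5634 genes were, and 1 was lower (Blnk), where 35.5% of all genes were. Btk was lower there too in all 6 libraries when no UMIs were added, but by 135.3 against 135.0 CPM in Smc3 wt/- replicate 1, and the 0.5 UMIs added to each count turned that library. Naive or memory B-like cells held less RNA, with a median of 2472 UMIs against 5221 in CB-like cells. Counted as UMIs per cell, 1 member was higher in every library (Cd22) and 3 were lower (Btk, Blnk and Syk). Cd79a and Cr2 were then higher in 5 of 6 libraries, Ms4a1 and Lyn lower in 5 and Cd79b lower in 4. The share of all genes was not computed for this count. Again in CPM, S-phase GC B-like cells had 2 higher (Cd22 and Cr2, with 19.4% of all genes) and 3 lower (Btk, Blnk and Syk, with 25%). CC-like cells had the same 2 higher (21.3% of all genes) and the same 3 lower (26.2%). In the unnamed cells 4 were higher (Cd79a, Cd79b, Cd22 and Cr2, with 15.7% of all genes) and 0 lower (23.5%). The S-phase GC B-like and CC-like counts lie near the shares of all genes, and in S-phase GC B-like cells the 5 members became 3 without integration of the libraries and 1 at a clustering resolution of 1. In CC-like cells the 5 became 3 under both. Without Smc3 wt/- replicate 2, all 9 members lay on one side in S-phase GC B-like cells, 6 higher and 3 lower, where 25.4% and 32% of all genes were.

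**Figure D2:**
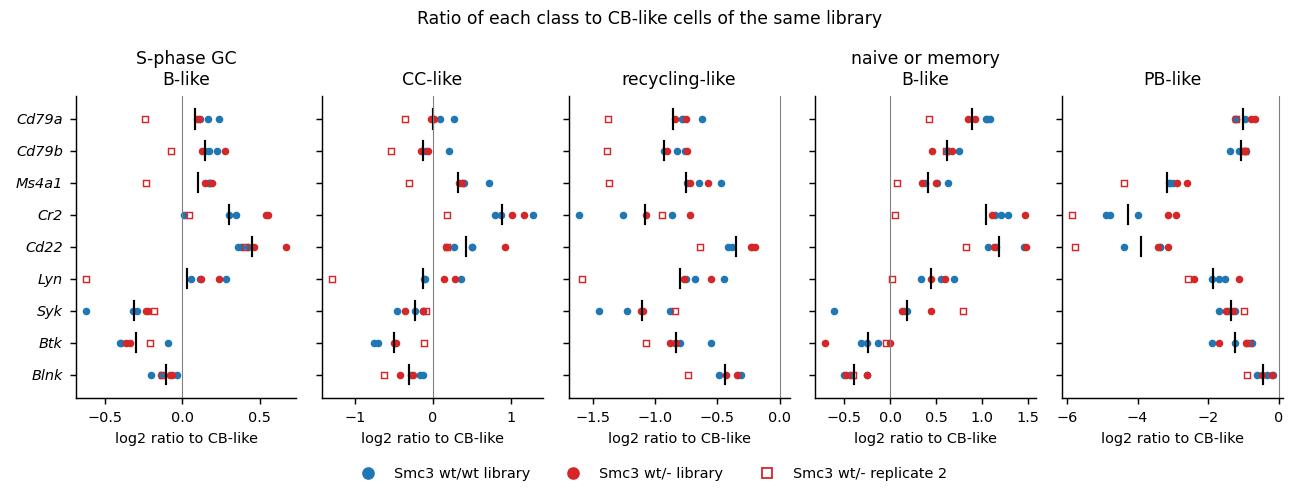
Log2 ratio (x axis, with 0.5 UMIs added to each count) of each class to CB-like cells of the same library for each member (y axis), 1 point per library with black bars for the mean; each panel has its own x axis. Points of Cd22 and Cr2 lie right of 0 and those of Syk, Btk and Blnk left of 0 in the S-phase and CC-like panels, and all 9 members lie left of 0 in the recycling-like and PB-like panels (for PB-like, 39.2% of all genes were lower in every library).

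The difference between recycling-like and CB-like cells depends on the scale. In CPM, 9 of 9 members were lower in every library, where 36.6% of all genes were lower and 28.4% higher, by 1.27-fold (Cd22) to 2.15-fold (Syk). Recycling-like cells were the richest GC cells in RNA, with a median of 14192 UMIs against 5221 in CB-like cells. Counted as UMIs per cell, 0 members were lower in every library (0.513% of all genes were) and 3 were higher (Cd22, Btk and Blnk), where 88.9% of all genes were. Cd79a had 13.3 ± 2.83 UMIs per recycling-like cell and 9.26 ± 2.36 per CB-like cell. The members thus took a smaller share of a larger RNA content. Whether doublets remain among them was not tested.

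All 9 members were lower in the plasma lineage than in CB-like cells in every library, where 43.4% of 5616 genes were lower and 15.7% higher. This class pools PB-like and PC-like cells, whose Cd79a means lay on either side of the CB-like mean. They were 855 CPM in PB-like, 1726 CPM in CB-like and 2726 CPM in PC-like cells. Only in Smc3 wt/- replicate 2 was PC-like Cd79a (2246 CPM) below the CB-like value (2446 CPM). For the pooled class the mean log2 ratio was -0.57 ± 0.45 for Blnk, -0.58 ± 0.22 for Cd79a and -1.13 ± 0.19 for Cd79b, beside a median of -0.37 over all genes. In the pooled class Blnk and Cd79a were thus little below the typical gene. Syk (-1.48 ± 0.16), Btk (-1.38 ± 0.46) and Lyn (-1.90 ± 0.67) were in between, and Ms4a1 (-3.47 ± 1.18), Cd22 (-4.02 ± 1.16) and Cr2 (-4.40 ± 1.26) were the lowest, the last 2 at background. With immunoglobulin UMIs kept in the scale the median over all genes moved to -0.97 and all 9 members were again lower in every library, where 63.1% of all genes now were. Per cell, 5 members were lower in every library, Ms4a1, Cd22, Cr2, Syk and Lyn, where 10.9% of all genes were.

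Shares of cells with at least 1 UMI were compared at equal depth. By mean share, Cd79a was lower in PB-like and higher in PC-like than in CB-like cells. Cells were thinned to 1000 UMIs outside immunoglobulin genes, and 4 of 2059 plasma-lineage, 11 of 2974 CB-like and 59 of 526 T cell-like cells were too shallow and were left out. Cd79a was seen in 81.2% ± 6.84 of CB-like, 53.2% ± 11.4 of PB-like and 87.8% ± 3.81 of PC-like cells, and in 4.83% ± 1.82 of T cell-like cells. Ms4a1 went from 76.4% ± 5.23 in CB-like to 17.8% ± 7.47 in PB-like and 3.63% ± 4.88 in PC-like cells, the last beside 3.04% ± 1.90 in T cell-like cells. For Cd22 the shares were 11.7% ± 2.19, 0.605% ± 0.95 and 0.961% ± 2.25, with 1.07% ± 1.29 in T cell-like cells, so both plasma classes were at background. Blnk was seen in 32.3% ± 2.66 of CB-like cells and in 23.4% of both PB-like (SD 6.30) and PC-like cells (SD 13.6), against 0.717% ± 0.82 of T cell-like cells.

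Within the plasma lineage, 1 of the 9 members was higher in PC-like than in PB-like cells in every library (Cd79a, by 3.24-fold, where 5.7% of 5159 genes were), and 0 were lower in every library (28.7% of genes). PC-like cells numbered 12 to 22 in each of the 5 libraries other than Smc3 wt/- replicate 2. The Cd79a log2 ratio was 1.70 ± 0.42, beside a median of -0.42 over all genes. Without Smc3 wt/- replicate 2 the count of members higher in every library was 3, with Cr2 and Lyn, but Cr2 rests on 1 UMI in the PC-like cells of those 5 libraries and Lyn on 1 UMI in Smc3 wt/wt replicate 1 (23.9 CPM against 33.5 CPM in PB-like cells), so both owe their side to the 0.5 UMIs added. The size of the Cd79a difference depends on the scale. With immunoglobulin UMIs in the scale its log2 ratio was 0.36 ± 0.37, higher in 5 of 6 libraries, beside a median of -1.76 over all genes and with 5 other members lower in every library, where 75.7% of all genes were. Per cell, Cd79a had 11.01 ± 2.75 UMIs in PC-like and 10.3 ± 2.85 in PB-like cells, and was higher in PC-like cells in 5 of 6 libraries. Cd79b had 2.75 ± 1.16 against 8.85 ± 2.86 UMIs per cell, and 6 members (Cd79b, Ms4a1, Cd22, Btk, Blnk and Syk) were lower per PC-like cell in every library. Of all genes 82% were lower per PC-like cell in every library, so the 6 do not stand out and Cd79a is among the genes that were not. The 16 plasma markers summed to 240123 to 395960 CPM in PC-like cells and to 22372 to 113775 CPM in PB-like cells, and their part in the scale was not tested.

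Immunoglobulin load gave an ordering of the same cells that uses no member. Plasma-lineage cells were binned by the immunoglobulin share of their UMIs into under 10% (75 cells in 4 libraries), 10 to 50% (392 cells in 6) and over 50% (1580 cells in 6). Cd79a went from 580 ± 216 CPM (n = 4) over 972 ± 323 CPM to 2755 ± 431 CPM, higher in 4 of 4 libraries at the first step and in 6 of 6 at the second. Cd79b went from 545 ± 115 CPM (n = 4) over 840 ± 154 CPM to 620 ± 181 CPM, higher in 4 of 4 libraries at the first step and lower in 5 of 6 at the second. In Smc3 wt/wt replicate 1, left out of the lowest bin with 8 cells, the first step went down instead, from 979 to 435 CPM for Cd79a and from 757 to 601 CPM for Cd79b. The first step depends on the scale, as cells under 10% held more UMIs outside immunoglobulin genes. In Smc3 wt/wt replicate 3, 24 cells under 10% held 646482 of them and 296 of Cd79a. Its 32 cells at 10 to 50% held 391667 and 376. Per cell, Cd79a was lower at this step there and in Smc3 wt/- replicates 1 and 3, and higher in Smc3 wt/wt replicate 2. Ms4a1 was lower in 6 of 6 libraries at the second step, from 197 ± 60.9 to 87.4 ± 81.4 CPM, and Blnk in 5 of 6, from 278 ± 53.1 to 227 ± 87.5 CPM. At the second step Smc3 wt/- replicate 2 went up for Cd79a and down for the other 3, with Cd79a from 929 to 2193 CPM.

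**Figure D3:**
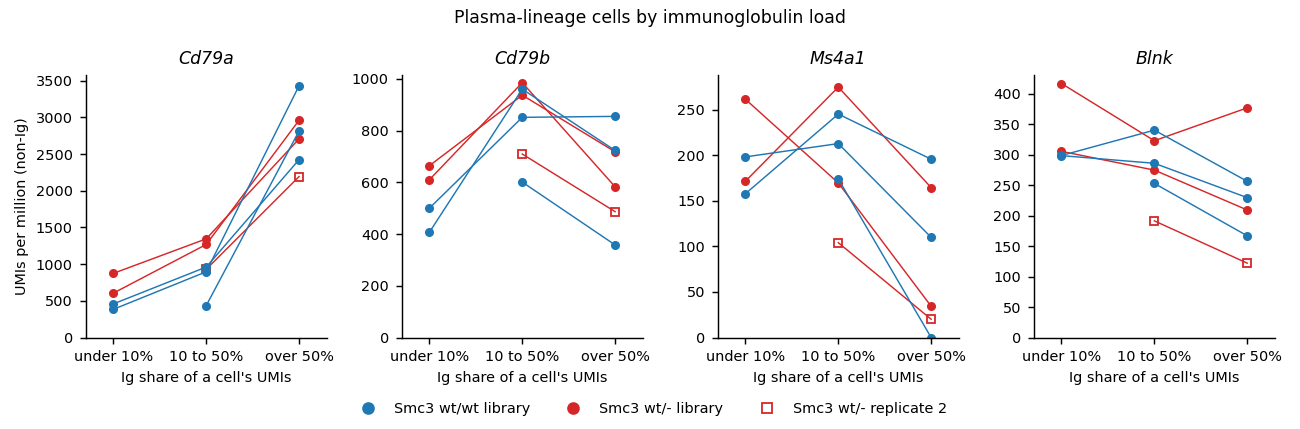
CPM of UMIs outside immunoglobulin genes (y axis) of 4 members in plasma-lineage cells, binned by the immunoglobulin share of a cell's UMIs (x axis), 1 line per library with at least 10 cells in a bin. Every Cd79a line climbs to over 2000 CPM above 50% load, while every Ms4a1 line goes down from the middle to the highest load.

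In the naive or memory B-like class, cells were divided by whether an Ighd UMI, the heavy chain of IgD, was seen after thinning (531 with, 1246 without). Cd79a was higher with Ighd in 5 of 6 libraries, at 3.90 ± 0.48 against 3.42 ± 0.10 UMIs per 1000. Ms4a1 was lower with Ighd in 5 of 6, at 1.84 ± 0.22 against 2.13 ± 0.22 UMIs per 1000. No member was on one side in every library. A cut on 1 gene is a range and not a cell type.

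Other genes of the pathway were read from 2 lists that hold no member. Of 32 positive regulators (receptors, kinases, adaptors and effectors, without 4 relatives from T and myeloid cells), 24 were lower and 1 higher in the plasma lineage than in CB-like cells in every library, where 43.4% and 15.7% of all genes were, with a median log2 ratio of -1.38. Of 22 genes that limit the signal, 11 were lower and 3 higher, the lower count near the share of all genes, also with a median of -1.38, against -0.37 over all genes. The positive genes with the largest difference were Rasgrp1, a Ras activator (27.6 ± 5.16 CPM in CB-like and 3.72 ± 3.20 CPM in plasma-lineage cells), Bank1, a scaffold (169 ± 68.0 and 28.2 ± 15.0 CPM), and Blk, a Src family kinase (135 ± 19.7 and 24.0 ± 10.0 CPM). On the limiting side they were the sialic acid receptor Siglecg (274 ± 42.1 and 19.2 ± 9.93 CPM), Cd72 (170 ± 58.1 and 18.5 ± 9.17 CPM) and the phosphatase Ptpn22. Ptpn22 went the other way, from 4.05 ± 3.02 CPM in CB-like to 41.8 ± 26.8 CPM in plasma-lineage cells. In naive or memory B-like cells 15 of the 32 positive and 12 of the 22 limiting genes were higher in every library (18.2% of all genes), and 5 and 2 were lower (35.5%). In recycling-like cells 23 and 11 were lower in CPM (36.6% of all genes) and 0 were higher in either list (28.4%).

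The members also differed in which genes they tracked across 44 sums of a library and a class, with Pearson's r of log2(CPM + 1) over 5118 genes. The sums share libraries and base composition, so r is a description. Ms4a1 and Cd22 were close to each other (r = 0.967), and the nearest genes of Cd22 were Evl (0.983), Ms4a1 and Sh3bp5. Cr2 was nearest to Btg1 (0.962), Bcl11a and Swap70. Cd79b (Foxp1, 0.950, then Fcrl1 and Arhgap25) and Lyn (Arhgap25, 0.954, then Foxp1 and Siglecg) shared 2 of their 3 nearest genes. Cd79a had r = 0.772 to Cd79b (0.881 without Smc3 wt/- replicate 2) and 0.107 to Blnk (0.189 without it), and its nearest genes were Gimap1 (0.918), Trim7 and mt-Nd4. Syk was nearest to Sh3bgrl3 (0.928), Btk to Traf5 (0.921) and Blnk to 2310011J03Rik (0.911, or 0.829 without Smc3 wt/- replicate 2).

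Turning to the genotype, no member passed the edgeR quasi-likelihood test with Benjamini-Hochberg adjustment in any of 4 classes, CB-like, CC-like, naive or memory B-like and plasma-lineage cells. The naive or memory B-like, CB-like and CC-like fits tested all 9 members and the plasma-lineage fit 7, where Cd22 and Cr2 did not pass the filter on low counts. The test called 0 of 9067 genes in CB-like, 0 of 7441 in CC-like, 0 of 7063 in naive or memory B-like and 0 of 5939 in plasma-lineage cells (0% of genes in each). At an unadjusted p under 0.05 there were 250, 118, 129 and 242 genes, and DESeq2 called 0 in each class. The same test in 4 further classes with enough cells was added after seeing the data. It called 0 of 9793 genes in S-phase GC B-like, 0 of 9632 in recycling-like, 0 of 8175 in unnamed and 0 of 5754 in PB-like cells (0% in each), where 216, 151, 209 and 394 genes had an unadjusted p under 0.05 and DESeq2 called 1, 1, 0 and 1. No member was among the genes called by either tool. Cd79a in PB-like cells had a log2 fold change of 0.70 (SE 0.21, 95% interval 0.23 to 1.17, edgeR adjusted p = 0.705), and 0.55 (SE 0.20, adjusted p = 0.950) without Smc3 wt/- replicate 2. The intervals were wide. In the plasma lineage Cd79a had a log2 fold change of 0.96 (SE 0.43, 95% interval -0.01 to 1.93, adjusted p = 0.829). Cd79a in CB-like cells had 0.43 (SE 0.25, interval -0.11 to 0.97, adjusted p = 0.9997). Smc3 wt/- replicate 2 holds most plasma-lineage cells. In it 1411 of 1739 of these cells were PC-like, against 12 to 22 of 34 to 82 in the other libraries. Without it the Cd79a log2 fold change of the plasma lineage was 0.26 (SE 0.21, adjusted p = 0.994) and that of CB-like cells 0.16 (SE 0.19, adjusted p = 0.9999).

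**Figure D4:**
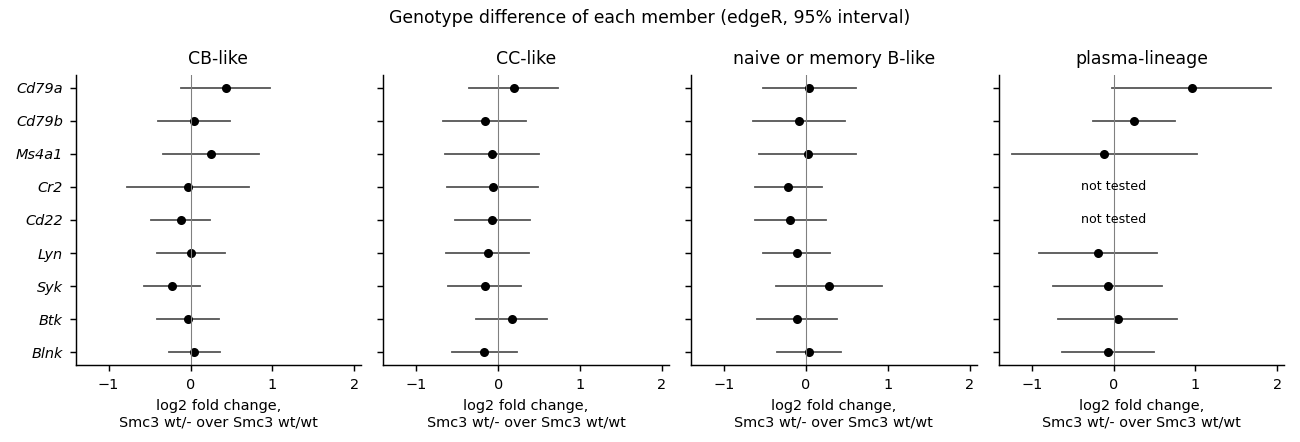
Log2 fold change of Smc3 wt/- over Smc3 wt/wt (x axis) for each member (y axis) in 4 classes, with points for the edgeR estimate and bars for its 95% interval (3 libraries per genotype). Every interval in these 4 classes includes 0; that of Cd79a in the plasma lineage runs from -0.01 to 1.93.

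Cd79a nonetheless lay on one side in most classes. All 3 Smc3 wt/- libraries were above all 3 Smc3 wt/wt libraries in 6 of 8 classes. The Smc3 wt/- mean was 1.30-fold the Smc3 wt/wt mean in CB-like cells (1.14-fold without Smc3 wt/- replicate 2), 1.13-fold in S-phase GC B-like (1.08-fold), 1.09-fold in CC-like (1.04-fold), 1.07-fold in recycling-like (1.09-fold) and 1.11-fold in unnamed cells (1.09-fold). In the unnamed cells Smc3 wt/- replicate 2 held 14.6% immunoglobulin UMIs against 1.82% to 2.11% elsewhere, and its 16 plasma markers summed to 19470 CPM against 3986 to 4512 CPM. In PB-like cells it was 1.52-fold, with 691, 692 and 651 CPM for Smc3 wt/wt and 1076, 1048 and 969 CPM for Smc3 wt/-, and 1.51-fold without that library. The 16 plasma markers of PB-like cells were split alike, with 22372 to 28106 CPM for Smc3 wt/wt and 32724, 113775 and 33421 CPM for Smc3 wt/-, and their part in the difference was not tested. The groups overlapped in naive or memory B-like and in PC-like cells. The share of genes with the Smc3 wt/- libraries on top was 3.65% in CB-like, 3.2% in S-phase GC B-like, 2.35% in CC-like, 3.47% in recycling-like, 2.44% in naive or memory B-like, 2.23% in unnamed, 5.31% in PB-like and 2.57% in PC-like cells. Of 3090 genes at 20 CPM or more in all 8 classes, Cd79a was the only one on top in 6 or more, and 2 genes, Fcgr2b and Nap1l1, lay below in 6 or more. This count was made after the values were seen, and the classes share the same libraries, so they are not separate tests of it. With immunoglobulin UMIs in the scale the count was 4 classes, as it was with doublets kept, without integration or at a clustering resolution of 1. These alternatives were chosen after seeing the data.

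No other member was on top in any class. Syk lay below in CB-like cells (126 ± 8.46 against 106 ± 7.93 CPM, n = 3 each), Lyn in recycling-like, Cr2 in naive or memory B-like and Btk in unnamed cells, 1 class each, where 4.39%, 2.96%, 2.86% and 5.41% of all genes lay below. Among the genes that limit the signal, Fcgr2b, the inhibitory receptor for IgG, went the other way from Cd79a and is named here because of its values. In CB-like cells it was at 92.4, 88.0 and 89.9 CPM for Smc3 wt/wt and 71.8, 48.7 and 61.5 CPM for Smc3 wt/-. The Smc3 wt/- libraries lay below in 6 of 8 classes, all but the unnamed and PC-like cells, where the share of all genes below was 4.06% in S-phase GC B-like, 3.46% in CC-like and 6.06% in PB-like cells (5.25% in PC-like cells). The edgeR log2 fold change in CB-like cells was -0.51 (SE 0.14), with an adjusted p of 0.9997 over all genes. Of the positive list 31, 30, 31 and 22 of 36 genes were tested in CB-like, CC-like, naive or memory B-like and plasma-lineage cells, and of the limiting list 17, 16, 19 and 13 of 22. The test called 0 of them in each class.

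**Figure D5:**
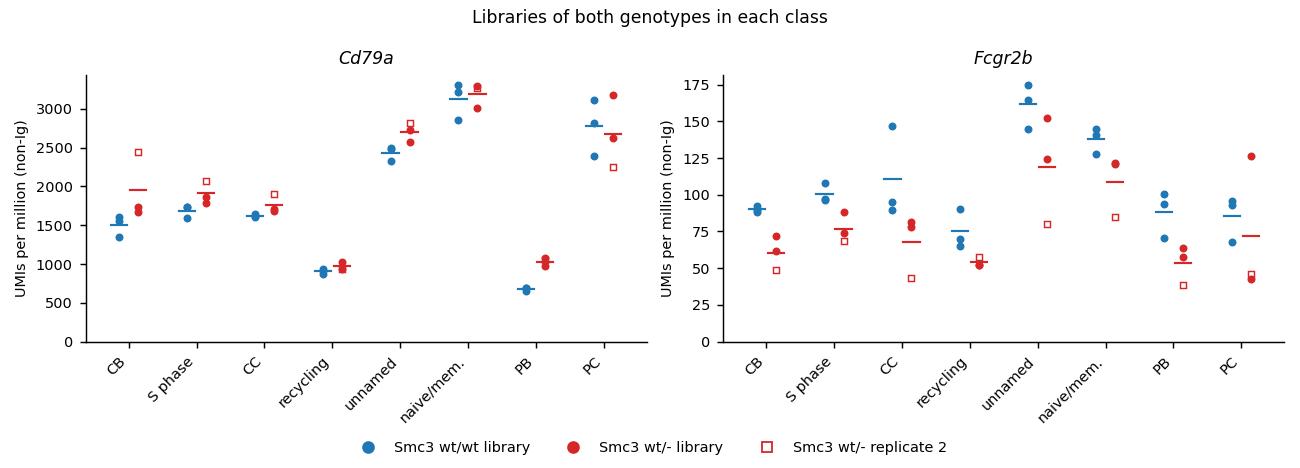
CPM of UMIs outside immunoglobulin genes (y axis) of Cd79a and Fcgr2b in 8 classes (x axis), 1 point per library and bars for the mean of 3 libraries of a genotype. Cd79a points of Smc3 wt/- libraries lie above those of Smc3 wt/wt libraries in 6 classes and Fcgr2b points below in 6; in PB-like cells Cd79a lies at 651 to 692 and 969 to 1076 CPM.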

How the data were processed

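Transcripts of single splenic cells were counted in 6 libraries, 3 per genotype, whose groups come from the sample labels. The authors ran Cell Ranger 3.0.2 (per the file headers) on build mm10 and deposited raw UMI counts per gene and barcode. Their processing notes also name R 4.0.2 and Seurat 4.0.0. The deposited counts were used as they are. Whether counting used strand is not given in the sources used here, and Ms4a1, Cd22, Btk and Lyn overlap genes on the opposite strand.

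Barcodes with at least 500 genes and at most 10% mitochondrial UMIs were kept (21568 of 22939). In each library the cells with the highest Scrublet doublet scores (scanpy 1.11.5) were then removed, 759 in all (3.52%). Their number was set beforehand, at 0.8% of cells per 1000 barcodes, and is not a measured doublet rate. Cells were clustered with Seurat 5.3.0 after integration over libraries (2000 variable genes, 1848 used once members, pathway lists, immunoglobulin, mitochondrial, ribosomal and haemoglobin genes and the cohesin genes were left out, 30 components, 20 neighbours, resolution 0.5). A cluster was named from its 10 leading genes and at least 3 detected markers, and this scoring rule was written after clusters were seen. PB-like and PC-like are the plasma-lineage clusters with and without raised S or G2/M markers.

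UMIs were summed per library and class, with at least 20 cells for ratios and genotype tests, or 10 for PC-like and myeloid-like levels, PC-like ratios and load bins. The 392 immunoglobulin genes were left out of the scale. Ratios between classes had 0.5 UMIs added. Genotypes were compared with edgeR 4.0.16 (quasi-likelihood test, TMM, filterByExpr, two-sided, Benjamini-Hochberg threshold 0.05), within a class and without covariates. Of the 8 classes tested, S-phase GC B-like, recycling-like, unnamed and PB-like cells were added after seeing the data. DESeq2 1.42.0 was an alternative, and the code was tested on simulated data. Depth was 5223325 to 35354257 UMIs per library. All 9 members are described. Other pathway genes are named as the 3 of a list with the largest mean log2 ratio between plasma-lineage and CB-like cells. Correlated genes are the 3 of highest r among genes with a mean of at least 20 CPM. Smc3 is the targeted gene. Members and lists were chosen with earlier results of these data known. Analyses ran in R 4.3.3 and Python 3.11.15 (numpy 2.4.6, scipy 1.17.1, pandas 2.3.3, matplotlib 3.10.9).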

Additional observations from a re-analysis of the deposited data

How the results depend on the processing

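Of 306 recalculated genotype fold changes of members (34 values under 9 alternatives that keep all libraries), 14 changed sign and 0 passed 0.05; the smallest adjusted p of a member under any alternative, libraries left out included, was 0.373. The sex of each library was read from Xist and Y-linked transcripts. In replicate order it was male, male and female for Smc3 wt/wt and female, male and female for Smc3 wt/-, so it was uneven between genotypes. In CB-like cells the log2 fold change of Cr2 (-0.03) became 0.14 with DESeq2, 0.020 with the replicate block, 0.20 with sex as a covariate, 0.050 with doublets kept, 0.071 without integration and 0.080 at resolution 1. That of Btk (-0.03) became 0.016 with doublets kept and without integration, and that of Lyn (0.01) became -0.00394 without the low-count filter, -0.00224 with doublets kept, -0.10 without integration and -0.034 at resolution 1. With sex as a covariate Cr2 in CC-like cells became 0.069 and Blnk in naive or memory B-like cells -0.0069. Leaving out 1 library at a time, the log2 fold changes that changed sign ran as follows: in CB-like cells Cd79b -0.083 to 0.14, Cd22 -0.22 to 0.022, Cr2 -0.42 to 0.32, Btk -0.12 to 0.055 and Lyn -0.12 to 0.15, in CC-like cells Ms4a1 -0.23 to 0.041, Cd22 -0.20 to 0.079, Cr2 -0.27 to 0.072 and Lyn -0.31 to 0.067, in naive or memory B-like cells Cd79a -0.095 to 0.12, Cd79b -0.26 to 0.023, Ms4a1 -0.16 to 0.15, Btk -0.32 to 0.041, Blnk -0.029 to 0.13 and Syk -0.052 to 0.48, in plasma-lineage cells Ms4a1 -0.49 to 0.29, Btk -0.21 to 0.21, Blnk -0.24 to 0.093 and Syk -0.34 to 0.11.

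Without the low-count filter 7, 23, 10 and 73 genes were called in CB-like, CC-like, naive or memory B-like and plasma-lineage cells, none a member, and 1 gene was called in CB-like cells both with doublets kept and without integration. Other alternatives called 0 genes in these 4 classes, as did every fit without 1 library. In the 4 classes added after seeing the data, DESeq2 called 1 gene each in PB-like, recycling-like and S-phase cells, and in unnamed cells the replicate block called 2 and leaving out 1 library 0 to 4 (4 without Smc3 wt/- replicate 1). The labels number the replicates, and same-numbered libraries had correlations of 0.08 to 0.35 in their deviations, all above 0 but not all over 0.1. Whether they share more than a number was not settled by these values. With the replicate block 0 genes were called in each of the 7 other classes. Of members on one side in every library (5 each against CB-like), S-phase GC B-like cells had 3 without integration and 1 at resolution 1 (5 to 9 without 1 library), and CC-like cells had 3 without integration and at resolution 1 (5 to 6 without 1 library). Leaving out a library cannot lower such counts. For PC-like against PB-like cells the count of 1 became 5 with immunoglobulin UMIs in the scale, all lower, and 3 without Smc3 wt/- replicate 2, where Cr2 and Lyn owe their side to the 0.5 UMIs added. The causes were not tested. Classes with Cd79a on top went from 6 to 4 with all UMIs in the scale, doublets kept, no integration or resolution 1. Leaving out a library gave 6, but it cannot lower this count, so it is no check of it. Scaled to total UMIs, counts for recycling-like, naive or memory B-like and plasma-lineage cells stayed within 1.5 times. Counted as UMIs per cell they moved further. Recycling-like cells went from 9 members lower to 0 lower and 3 higher, and plasma-lineage cells from 9 lower to 5. Naive or memory B-like cells went from 6 higher and 1 lower to 1 higher and 3 lower. Depth limits Cr2 and Cd22, which had 23 and 58 UMIs in all plasma-lineage cells, and the PC-like values of 5 libraries, which rest on 12 to 22 cells each.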
